A study of Mus musculus with 6 samples.

Results

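RNA splicing and processing genes were examined among the genomic sites at which Ikaros was detected by chromatin immunoprecipitation with sequencing (ChIP-seq) in mouse natural killer (NK) cells. Ikaros is a DNA-binding zinc finger protein of lymphocytes and the product of Ikzf1. Members were all protein-coding genes in the deposited peak lists whose names begin with 1 of 19 prefixes: Ddx, Dhx, Srsf, Hnrnp, Sf3, Prpf, Rbm, Snrp, Lsm, Cpsf, Cstf, Exosc, Cnot, Thoc, Ints, Luc7l, Celf, Pcf11 or U2af. The rule found 34 genes of the 2145 protein-coding genes named in any list. It goes by name, so it also took Ddx11, whose product is a DNA helicase of sister chromatid cohesion.

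The lists came from 3 wild type (WT) libraries of splenic NK cells that were expanded ex vivo in IL-15 at 50 ng/ml and precipitated with an antibody against Ikzf1. The series also holds 3 Ikzf1 KO libraries, in which deletion of the gene is conditional on NKp46, a receptor of NK cells; these were not analysed here, so no value below is set against cells without Ikaros. The labels give no age or sex of the mice and do not say that replicates came from separate animals, so differences between lists may be technical only. Of 8 NK marker genes, Klrb1c and Gzmb were named in a list, and 0 of 4 T cell and 0 of 3 B cell markers were, but a peak near a gene does not measure its expression.

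Splicing removes introns from pre-mRNA on the spliceosome, which is built from small nuclear ribonucleoproteins. SR proteins and hnRNPs bind the transcript and steer the choice of splice sites, and DEAD-box and DEAH-box helicases remodel the RNA and protein contacts. The 3′ ends are cut by the cleavage and polyadenylation machinery for mRNAs and by the Integrator complex for small nuclear RNAs, while the exosome and the CCR4-NOT complex degrade RNA. Ikaros recognises DNA around the core GGGAA, which resembles parts of the sites of ETS and NF-kappa-B factors.

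The lists held 685, 2084 and 1342 peaks in WT replicates 1, 2 and 3, and 12, 28 and 19 of these peaks belonged to members. Each member had a single peak in each list that named it, giving 59 member peaks. Fold enrichment, the linear ratio that the authors deposited for each peak, belongs to its own list, and strength is therefore also given as a percentile of fold enrichment within the list, 100 being the strongest peak. Lists differ in length and their depth is unknown, so fold enrichments of different lists were not compared, and an order of genes by mean percentile is a description only.

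Of the 34 members, 9 were named in all lists (26.5%, 95% Clopper-Pearson interval 12.9 to 44.4). That share was 21.6% of all protein-coding genes named in any list. Another 7 members were named in 2 lists, so 16 were in 2 or more (47.1%, interval 29.8 to 64.9), against 47.2% of all protein-coding genes. The remaining 18 were named in 1 list. Both shares were near those of the genes at large. By position, the member peaks fell at 35 sites: 9 had a peak in all lists, 8 in 2 and 18 in 1. In WT replicates 1, 2 and 3, 75%, 32.1% and 47.4% of member peaks lay at sites of all lists. For the peaks of other protein-coding genes the shares were 72.5%, 23.9% and 35.9%. The mean difference was 7.39 percentage points (SD 4.54, n = 3 lists, exact sign-flip p of 0.25, the smallest that 3 lists allow).

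The 9 members in all lists were Ddx20, Hnrnpul2, Hnrnpf, Rbmxl1, Srsf9, Hnrnpab, Ddx5, Ints9 and Rbm4b, in falling order of mean percentile. They include 3 of the 5 hnRNP genes that had a peak. That share rests on 5 genes, and 21.6% of all protein-coding genes named in any list were in all lists.

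**Figure D1:**
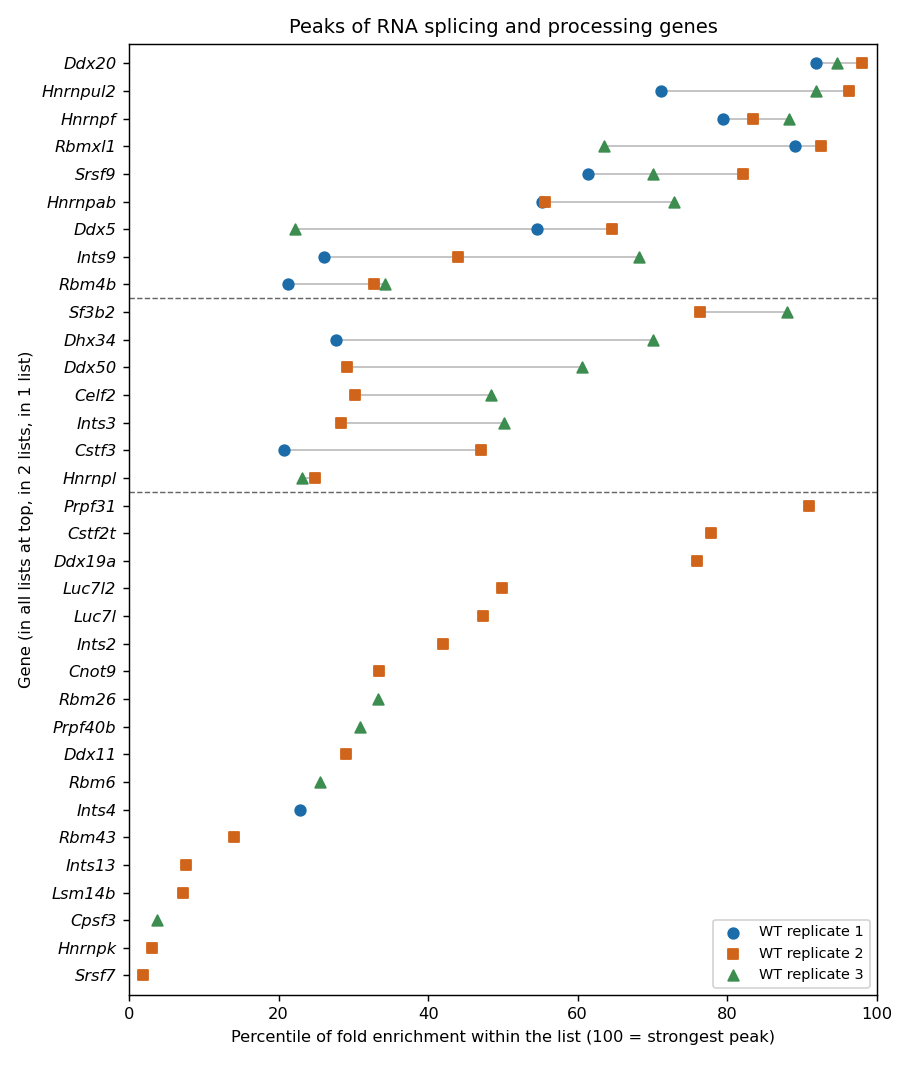
Percentile of fold enrichment within its own list (horizontal axis, 100 being the strongest peak) of the peak of each of 34 genes (vertical axis), with 1 symbol per WT replicate and a line from the lowest to the highest value. Ddx20 lies above 91 in all lists, and the genes named in 1 list spread from 1.87 for Srsf7 to 90.9 for Prpf31.

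Among RNA helicases, Ddx20 had the strongest peak of all members in every list. Ddx20, also known as Gemin3, is a helicase of the SMN complex, which assembles small nuclear ribonucleoproteins. Its region (ENSMUSG00000027905) lay on chromosome 3, 105687343 to 105687678 (mm10). Fold enrichments were 7.66, 13.6 and 9.29 in WT replicates 1, 2 and 3, and percentiles were 91.8, 98.0 and 94.7. The midpoints of the peaks lay 75, 61 and 62 bases downstream of the gene start. The promoter of Ddx20 is printed here, with those of the other 3 strongest members whose peaks overlapped the printed window in all lists, to show what sequence the peaks sat on. Each runs from 250 bases before to 50 bases from a start of the gene on, 5′ to 3′ along the gene. Starts and sequence are from RefSeq (GRCm38.p6, the assembly of mm10), and a start can lie inside the gene span. Capitals mark GGGAA or its reverse complement TTCCC. The windows are chr3:105687522-105687821 (minus strand) for Ddx20, chr6:117907554-117907853 (plus strand) for Hnrnpf, chr8:78508519-78508818 (minus strand) for Rbmxl1 and chr5:115326927-115327226 (plus strand) for Srsf9.
Ddx20: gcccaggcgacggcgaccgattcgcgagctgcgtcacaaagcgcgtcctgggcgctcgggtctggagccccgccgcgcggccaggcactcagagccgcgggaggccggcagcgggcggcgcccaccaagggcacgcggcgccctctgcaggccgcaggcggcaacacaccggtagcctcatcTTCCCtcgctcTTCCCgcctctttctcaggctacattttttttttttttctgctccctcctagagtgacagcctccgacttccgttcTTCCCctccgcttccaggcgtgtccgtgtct
Hnrnpf: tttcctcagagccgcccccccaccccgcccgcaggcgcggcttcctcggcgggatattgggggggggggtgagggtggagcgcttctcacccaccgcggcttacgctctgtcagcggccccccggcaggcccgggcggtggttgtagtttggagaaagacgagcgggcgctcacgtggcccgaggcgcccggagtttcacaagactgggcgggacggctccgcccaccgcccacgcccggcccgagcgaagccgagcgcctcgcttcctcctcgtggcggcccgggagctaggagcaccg
Rbmxl1: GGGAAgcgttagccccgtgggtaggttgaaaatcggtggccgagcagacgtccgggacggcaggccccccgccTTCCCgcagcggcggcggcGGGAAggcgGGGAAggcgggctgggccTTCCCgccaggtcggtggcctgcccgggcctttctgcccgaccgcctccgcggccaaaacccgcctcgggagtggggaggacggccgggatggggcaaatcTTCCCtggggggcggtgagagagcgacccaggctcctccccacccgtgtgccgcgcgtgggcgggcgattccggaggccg
Srsf9: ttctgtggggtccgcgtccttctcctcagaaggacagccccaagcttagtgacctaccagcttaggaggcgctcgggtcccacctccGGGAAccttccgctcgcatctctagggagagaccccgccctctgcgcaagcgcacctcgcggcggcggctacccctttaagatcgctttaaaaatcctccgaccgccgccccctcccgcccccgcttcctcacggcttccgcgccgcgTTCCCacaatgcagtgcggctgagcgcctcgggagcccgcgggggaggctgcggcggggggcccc

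The Ddx20 window held 3 copies of the core, all read as TTCCC along the gene. Their leftmost bases lay 68 and 57 bases before the start and 19 bases after it. The last 2 of these lay inside the peaks of all lists, and the first inside those of 2 lists. A match is a description of the letters and not a binding site.

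Ddx5 encodes p68, a helicase of splicing and microRNA processing. Its region (ENSMUSG00000020719; chromosome 11, 106788267 to 106789095) had fold enrichments of 5.23, 5.21 and 4.19 in WT replicates 1, 2 and 3. The percentiles of 54.6, 64.6 and 22.2 place it above the median peak of replicates 1 and 2 and below that of replicate 3. The peaks of replicates 2 and 3 covered all 300 bases of the Ddx5 window and reached the promoter window of Cep95, whose start lay 0.585 and 0.571 kb from their midpoints. The Ddx5 window held no GGGAA, and the parts of the peaks outside it were not read.

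Ddx50, a nucleolar helicase related to Ddx21, and Dhx34, which in human cells acts in nonsense-mediated decay, were each named in 2 lists. The Ddx50 region (ENSMUSG00000020076; chromosome 10, 62651276 to 62651552) had fold enrichments of 4.21 and 5.36 in WT replicates 2 and 3. Its midpoints lay 193 and 196 bases upstream of a start. The Dhx34 region (ENSMUSG00000006019; chromosome 7, 16204840 to 16205118) had 4.56 and 5.81 in WT replicates 1 and 3. It lay inside the gene, 17.03 and 16.99 kb downstream of the nearest Dhx34 start, and 29.6 kb from the nearest start of another protein-coding gene, that of Meis3. Ddx19a, a helicase of mRNA export, and Ddx11 were named in WT replicate 2 only, at percentiles of 76.0 and 29.0.

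Of the hnRNP genes, Hnrnpul2, Hnrnpf and Hnrnpab were in all lists, Hnrnpl in 2 and Hnrnpk in 1. Hnrnpul2 encodes a relative of hnRNP U. Its region (ENSMUSG00000071659; chromosome 19, 8819092 to 8819581) had fold enrichments of 5.74, 9.82 and 7.92 in WT replicates 1, 2 and 3. Its percentiles were 71.1, 96.3 and 91.8, so its peak was the strongest of any member after Ddx20 in the lists of replicates 2 and 3. The peaks overlapped an end of the Hnrnpul2 span, and the authors also named Ttc9c for them, whose start lay 0.109, 0.037 and 0.075 kb from the midpoints. Assignment to 1 of the 2 genes was not tested.

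Hnrnpf, a splicing regulator that binds runs of G, had the widest peaks of the members in all lists, 1118, 1247 and 1182 bp in WT replicates 1, 2 and 3. Its region (ENSMUSG00000042079) lay on chromosome 6, 117906682 to 117907981. Fold enrichments were 6.18, 6.26 and 7.17, at percentiles of 79.4, 83.5 and 88.3. All peaks covered the whole window printed above, which held no GGGAA on either strand. The sequence of the peaks outside the window was not read. The midpoints lay 446, 499 and 414 bases upstream of the start on which the window was built. That start and the peaks lay inside the RefSeq span of Hnrnpf, 117900340 to 117925622. The authors also named 4933440N22Rik for these peaks, whose start lay 0.847, 0.9 and 0.815 kb from the midpoints.

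Hnrnpab differed in position from the other members in all lists that have a promoter entry. Its region (ENSMUSG00000020358), on chromosome 11, 51605912 to 51606214, lay inside the gene, with midpoints 802, 849 and 813 bases downstream of the start and no overlap with the promoter window. Fold enrichments were 5.26, 4.90 and 5.94 in WT replicates 1, 2 and 3, at percentiles of 55.2, 55.7 and 72.9. Hnrnpl, which binds CA-rich RNA and regulates splicing of the CD45 transcript in lymphocytes, had fold enrichments of 4.09 and 4.23 in WT replicates 2 and 3, at percentiles of 24.9 and 23.2. The peak of replicate 2, of 1203 bp, contained the 201 bp peak of replicate 3. Hnrnpk was among the weakest peaks of WT replicate 2, at percentile 3.02, and Rmi1 was named for the same peak.

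Of the SR protein genes, Srsf9 was in all lists and Srsf7 in 1. The Srsf9 region (ENSMUSG00000029538), on chromosome 5, 115327016 to 115327287, lay over the start, with midpoints 30, 48 and 23 bases upstream of it. Fold enrichments were 5.42, 6.13 and 5.81 in WT replicates 1, 2 and 3, at percentiles of 61.3, 82.1 and 70.0. Its window held 2 copies of the core, and the copy whose leftmost base lay 15 bases before the start was inside the peaks of all lists. That copy reads TTCCCA along the gene, which is TGGGAA on the other strand. The Srsf7 peak was the weakest of all member peaks of WT replicate 2, at a fold enrichment of 3.31 and percentile 1.87.

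RNA-binding motif genes had 2 members in all lists, Rbmxl1 and Rbm4b. Rbmxl1 is a retrocopy of Rbmx, the gene of hnRNP G. Its region (ENSMUSG00000037070), on chromosome 8, 78508422 to 78508810, lay over the start, with midpoints 43, 5 and 63 bases upstream. Fold enrichments were 7.19, 7.94 and 5.49 in WT replicates 1, 2 and 3, at percentiles of 89.1, 92.5 and 63.5, and the Slc10a7 start lay 0.717, 0.755 and 0.697 kb away. How the authors treated reads that match several copies is not given in the sources used here. The Rbmxl1 window held 6 copies of the core, the most of the 30 member windows, and 3 of them were inside the peaks of all lists.

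Rbm4b, a paralog of the splicing regulator Rbm4, had the lowest mean percentile of the members in all lists. Its region (ENSMUSG00000033760; chromosome 19, 4755719 to 4756616) had fold enrichments of 4.39, 4.29 and 4.56 in WT replicates 1, 2 and 3, at percentiles of 21.3, 32.8 and 34.3. The peaks covered the whole promoter window, which held no GGGAA, and reached about 800 bases upstream, their outer edges lying 804, 806 and 797 bases before the start. Their sequence outside the window was not read. The authors also named the gene model Gm21992 for these peaks. Rbm26, Rbm43 and Rbm6 were each named in 1 list, at percentiles of 33.3, 14.0 and 25.6.

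Celf2, a splicing regulator, was named in 2 lists but for different sites. The peak of WT replicate 2, on chromosome 2, 6707445 to 6707645, lay 14.1 kb downstream of the nearest start, and that of WT replicate 3, 6721064 to 6721277, lay 0.492 kb downstream of a start. Fold enrichments were 4.23 and 4.93, at percentiles of 30.2 and 48.4. No Celf2 site was therefore shared between lists.

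Genes of 3′ end formation were reached in 8 members, of which Ints9 was in all lists. Ints9 encodes a subunit of the cleavage module of Integrator. Its region (ENSMUSG00000021975), covered an edge of the Ints9 span on chromosome 14, 64949866 to 64950261. Fold enrichments were 4.53, 4.55 and 5.71 in WT replicates 1, 2 and 3, at percentiles of 26.1, 44.0 and 68.2. Hmbox1 was also named for the peak of replicate 2.

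Ints3, an Integrator subunit, was named in 2 lists, with a region (ENSMUSG00000027933) on chromosome 3, 90433256 to 90433718. Fold enrichments were 4.19 and 5.00 in WT replicates 2 and 3, and midpoints lay 149 and 181 bases downstream of the start. Cstf3, which encodes the 77 kDa scaffold subunit of the cleavage stimulation factor, had a region (ENSMUSG00000027176) on chromosome 2, 104590348 to 104590600. Its fold enrichments were 4.38 and 4.65 in WT replicates 1 and 2, with midpoints 36 and 10 bases upstream of the start. Cstf2t, a retrocopy of Cstf2 that lies within Prkg1, was named in WT replicate 2 at a fold enrichment of 5.81, percentile 77.8, and its midpoint lay 40 bases upstream of the start. Cpsf3, the endonuclease that cuts pre-mRNA, had the weakest member peak of WT replicate 3, at percentile 3.8. Ints2, Ints4 and Ints13 were each named in 1 list, at percentiles of 42.0, 22.9 and 7.68.

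Spliceosome core genes had 6 members and 0 in all lists, beside 21.6% of all protein-coding genes named in any list. Sf3b2, a subunit of the U2 small nuclear ribonucleoprotein, had the highest percentile, in each of its lists, among the genes named in 2 lists, with fold enrichments of 5.72 and 7.09 in WT replicates 2 and 3, at percentiles of 76.3 and 87.9. Its region (ENSMUSG00000024853), on chromosome 19, 5291761 to 5292128, lay within the gene, 3.51 kb downstream of the start in both lists. Prpf31, a protein of the U4/U6 particle, had the strongest peak of the 13 members named in WT replicate 2 only, at a fold enrichment of 7.52 and percentile 90.9. Its peak overlapped the promoter windows of both Prpf31 and Tfpt. The list of WT replicate 3 held a peak that overlapped this one and was named for Tfpt only, so the site was in 2 lists although the gene name was in 1. Ints13 was a like case, its site being named for Fgfr1op2 in another list.

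Luc7l2 and Luc7l, whose products associate with the U1 particle, were named in WT replicate 2, at fold enrichments of 4.73 and 4.66 and percentiles of 49.9 and 47.4. Prpf40b and Lsm14b were also in 1 list, at percentiles of 30.9 and 7.20. Families go by prefix, so Lsm14b stands with the spliceosome core although its product acts in the translational repression of mRNA. Of the genes with the prefixes Exosc and Cnot, Cnot9, a subunit of the CCR4-NOT deadenylase, was the 1 member, at percentile 33.4 in WT replicate 2, and Usp37 was named for the same peak.

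**Figure D2:**
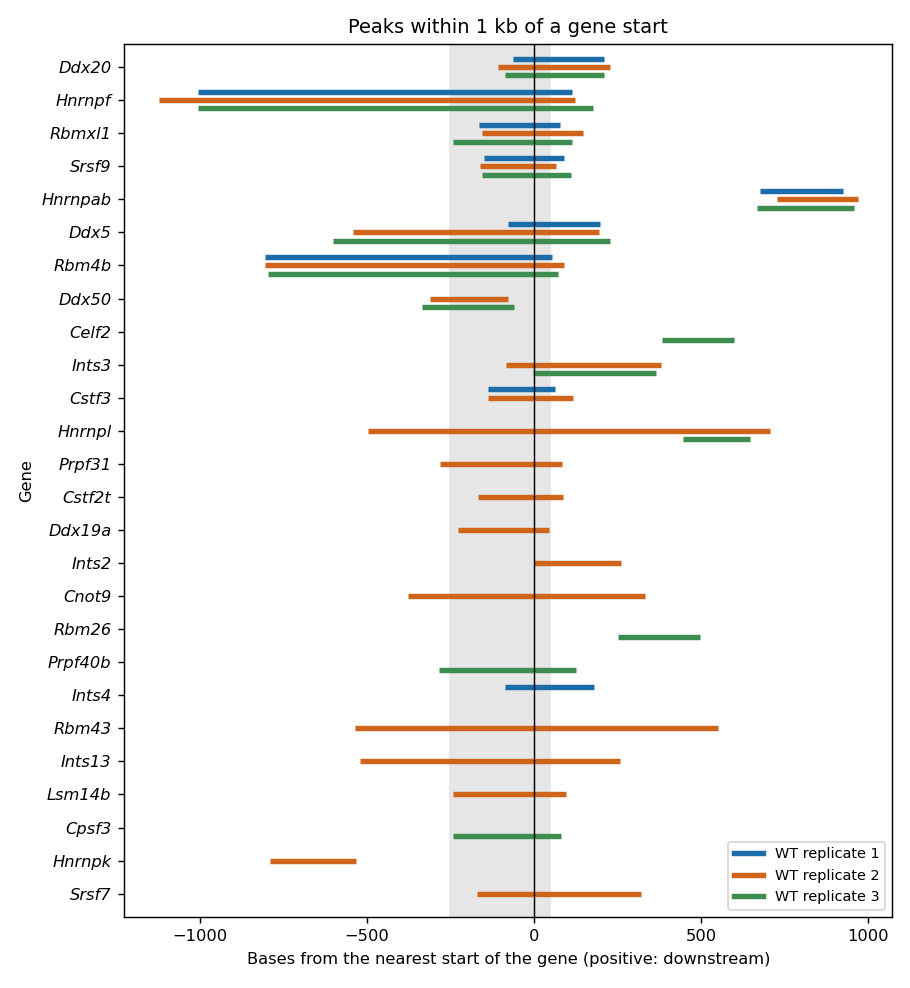
Span of each peak whose midpoint lay within 1 kb of a start of the gene that names it, in bases from that start (horizontal axis), for 26 genes (vertical axis), coloured by WT replicate; the grey band is the promoter window from 250 bases before to 50 bases from the start on. The spans of 22 genes reach the band, and those of Hnrnpab lie wholly downstream of it.

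Peaks of members lay mostly over gene starts. Starts were taken from the RefSeq promoter table, which held 30 of the 34 members and 1612 of the 2111 other protein-coding genes. The share held was thus smaller among the other genes, and genes without an entry were left out. Among members, Ddx11, Hnrnpul2, Ints9 and Luc7l had no entry. A start can lie inside the RefSeq span of its gene, as those used for Hnrnpf and Ddx50 do. Of 51 peaks of the 30 genes, 44 had their midpoint within 1 kb of a start. These 44 belonged to 26 genes. A gene named in several lists counts once in each, so the lists share genes. The other 7 peaks belonged to 5 genes: the Dhx34 and Sf3b2 sites, a Celf2 peak, the Rbm6 peak, 55.1 kb downstream of the start, and the Luc7l2 peak, 4.91 kb upstream of it. By the distance that the authors deposited, the Luc7l2 peak lay 406 bp from the gene. The share within 1 kb of a start was 90.0%, 87.5% and 82.4% of member peaks in WT replicates 1, 2 and 3. For the peaks of other protein-coding genes with an entry it was 66.1%, 58.6% and 69.2%, over 448, 1335 and 891 peaks. The difference averaged 22.0 percentage points (SD 8.09, n = 3 lists) and was positive in 3 of 3 lists. The two-sided exact sign-flip permutation p over lists was 0.25, the smallest that 3 lists allow, so the design cannot reach 0.05. Overlap with the promoter window gave 80.0%, 79.2% and 58.8% for members against 53.1%, 49.6% and 58.2% for other genes, so that in replicate 3 the shares differed by 0.574 percentage points.

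By the distance that the authors gave, all 59 member peaks lay within 1 kb of the named gene and 56 overlapped it. The shares within 1 kb for other protein-coding genes were 89.1%, 86.6% and 90.9% in WT replicates 1, 2 and 3 (mean difference 11.1 percentage points, SD 2.12, n = 3 lists, exact sign-flip p of 0.25).

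A further protein-coding gene was named for 15 member peaks of 11 genes. A peak that names 2 genes has more chances to be taken by a rule on names, so these shares were counted per pair of a peak and a gene it names, a choice made after the values were seen. They were 16.7%, 32.1% and 21.1% of member pairs in WT replicates 1, 2 and 3, against 15.2%, 14.7% and 17.3% of the pairs of other protein-coding genes. The mean difference of 7.57 percentage points was smaller than its spread between lists (SD 8.65, n = 3 lists, exact sign-flip p of 0.25). The gene pairs include Cnot9 with Usp37, Cpsf3 with Itgb1bp1, Prpf31 with Tfpt and Ints13 with Fgfr1op2, where both gene starts lay at most 0.216 kb from the midpoint.

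Strength did not differ in a common direction. The median percentile of member peaks was 54.9, 45.6 and 60.5 in WT replicates 1, 2 and 3, against 49.8, 49.2 and 49.1 for the peaks of other protein-coding genes. The differences were 5.11, -3.62 and 11.4 (mean 4.28, SD 7.53, exact sign-flip p of 0.5), so the spread between lists exceeded the mean. Without replicate 3 the mean difference was 0.743. Median peak widths of 270, 336 and 299 bp for members stood against 277, 293 and 293 bp for other genes (exact sign-flip p of 0.75). In all, 9 measures were compared, and after Benjamini-Hochberg adjustment the permutation p of the 6 measures that were at 0.25 was 0.375.

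**Figure D3:**
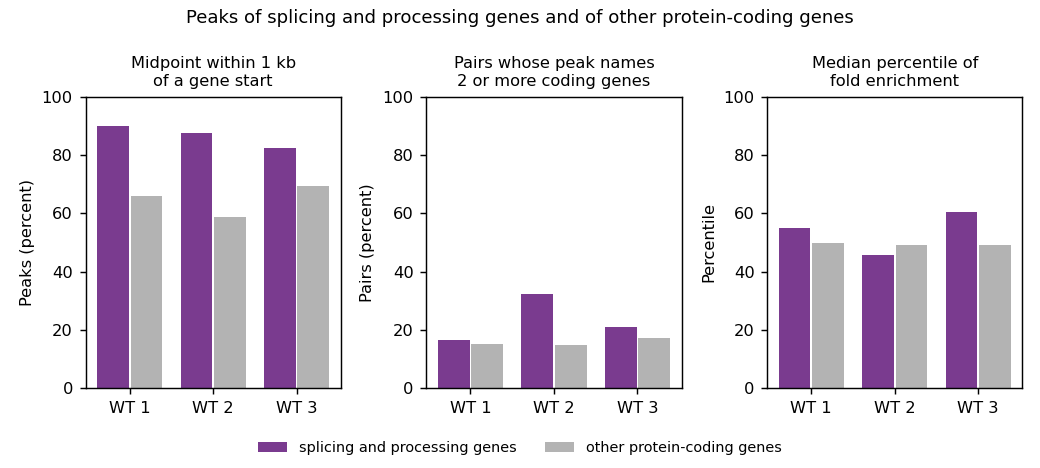
Bars give, for each WT replicate, the percentage of peaks with the midpoint within 1 kb of a gene start, the percentage of peak and gene pairs whose peak names 2 or more protein-coding genes, and the median percentile of fold enrichment, for splicing and processing genes and for other protein-coding genes. The first measure covers only genes with a promoter entry and is higher for splicing and processing genes in 3 of 3 lists. The second is close in WT replicate 1, 16.7% against 15.2%. The median percentile is lower in WT replicate 2, 45.6 against 49.2.

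The Ikaros core was common in promoters of any kind, and the shares below were not tested. Only the windows were read, so a peak that reaches outside its window may hold a core there. GGGAA, counted on both strands, was in 3 of the 7 windows of members in all lists (42.9%) and 17 of 30 member windows (56.7%). It was in 63.0% of all coding windows and 62.7% of all 32851 windows of the table. Among windows that a peak overlapped, 14 of 22 member windows held it (63.6%) against 68.8% of 1126 windows of other coding genes. TGGGAA, which contains GGGAA, was in 4 of 30 member windows (13.3%) against 24.5% of all coding windows and 25.6% of all windows. Among windows that a peak overlapped, it was in 3 of 22 member windows (13.6%) against 22.2% of those of other coding genes. CCGGAAG is a core of ETS sites that does not contain GGGAA. It was in 7 of 30 member windows (23.3%) and in 0 of the 7 windows of members in all lists. The shares were 8.86% of all windows, 11.6% of all coding windows and 24.9% of the windows of other coding genes with a peak. Median GC content was 62.7% in member windows, 66.0% in windows of other coding genes with a peak, 56.3% in all coding windows and 52.7% in all windows. The median number of CpG dinucleotides was 27.5, 27, 13 and 7 in the same order.

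**Figure D4:**
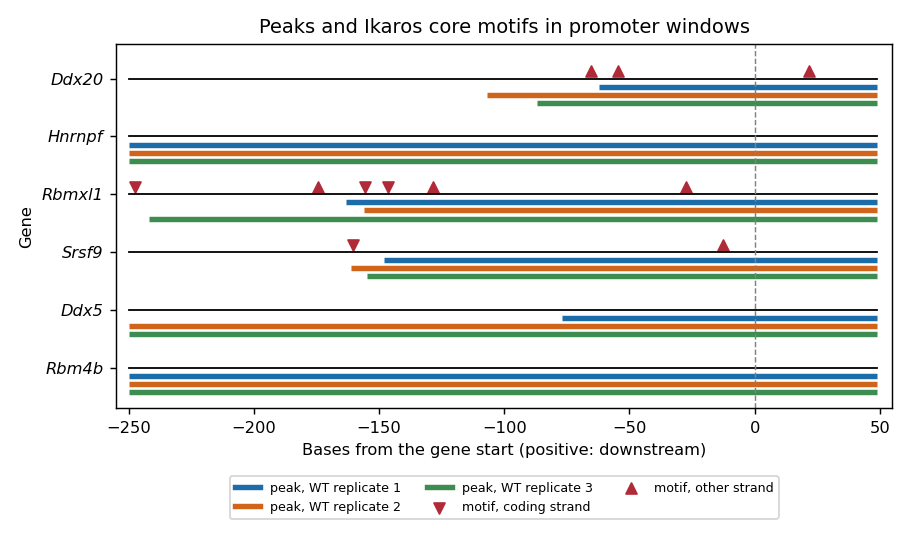
Promoter windows of 6 genes named in all lists (vertical axis), in bases from the gene start (horizontal axis), with the part of each window covered by the peak of each WT replicate (bars) and the matches of the Ikaros core (triangles, pointing down for the coding strand and up for the other strand). Ddx20, Rbmxl1 and Srsf9 hold 3, 6 and 2 matches, and the windows of Hnrnpf, Ddx5 and Rbm4b hold none. Sequence outside the windows was not read.

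The share of genes named in a list ran from 0% to 29.6% between families. The RefSeq table held 247 protein-coding genes with a member prefix, of which 34 were named in any list (13.8%, interval 9.72 to 18.7), against 9.36% of all 21896 protein-coding genes. In all lists it was 9 (3.64%, interval 1.68 to 6.80) against 1.98%. The 247 genes were taken by prefix whether or not a list named them. Members were chosen with earlier results of these data known, so these shares describe the rule's catch. By list the shares were 4.86%, 11.3% and 7.69% in WT replicates 1, 2 and 3, against 2.66%, 7.65% and 5.42% of all protein-coding genes. The highest family share was 8 of 27 genes of 3′ end formation and Integrator (29.6%, interval 13.8 to 50.2), then 5 of 21 hnRNP genes (23.8%, 8.22 to 47.2) and 2 of 11 SR protein genes (18.2%, 2.28 to 51.8). Helicases had 6 of 53 (11.3%), RBM and CELF genes 6 of 52 (11.5%) and spliceosome core genes 6 of 55 (10.9%), each near 9.36%. Exosc and Cnot genes had 1 of 21 and Thoc genes 0 of 7, with an upper limit of 41.0%. In all, 5 prefixes with 33 genes had no gene named, namely Snrp, Exosc, Thoc, Pcf11 and U2af. The intervals of neighbouring families overlap, and no difference between families, or of a family from all protein-coding genes, was tested. RefSeq assignment of the peaks adds Hnrnpd and Hnrnpdl to the hnRNP genes with a peak. The order of the 3′ end and hnRNP families therefore depends on the gene assignment.

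**Figure D5:**
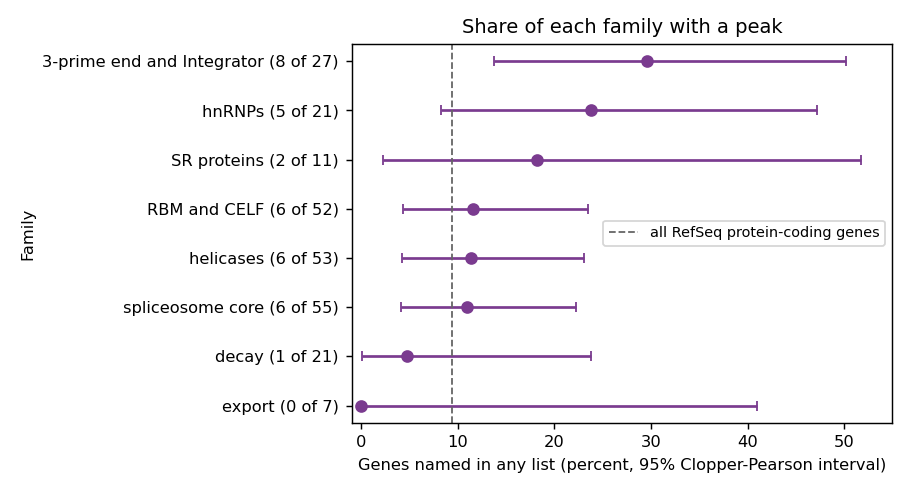
Percentage of the RefSeq genes of each family (vertical axis, with counts) that were named in any list (horizontal axis), with 95% Clopper-Pearson intervals; the dashed line is the share of all protein-coding genes, 9.36%. The interval of 3′ end and Integrator genes lies to the right of the line, and those of the other families span it. Counts use the gene names that the authors deposited, and RefSeq assignment would add Hnrnpd and Hnrnpdl to the hnRNP genes. Of the 8 named genes of that family, 5 were in 1 list only. The intervals cover counting error over genes only, and no family was tested against the line.

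Other genes of RNA processing, taken from a list written by role from general knowledge of the pathway with earlier results of these data known, were also named. Of 137 genes, 31 were in any list (22.6%, interval 15.9 to 30.6), beside 9.36% of all protein-coding genes, and 5 in all lists, beside 1.98%. No difference from the other genes was tested. Decay genes made up 16 of 41 (39.0%, interval 24.2 to 55.5) and splicing genes 11 of 64 (17.2%, interval 8.90 to 28.7). Smg9, a factor of nonsense-mediated decay, had fold enrichments of 4.41, 5.33 and 5.24 in WT replicates 1, 2 and 3, at percentiles of 21.8, 67.6 and 56.9. Srpk2, a kinase of SR proteins, had fold enrichments of 4.65, 7.19 and 8.16, about 3.0 kb downstream of its start. Wbp4, a spliceosomal protein, had 4.95, 5.36 and 4.96, and Tra2a, an SR-like splicing regulator, had 5.20, 2.79 and 3.2 at a site 27.5 kb downstream of its start. The Tra2a percentiles were 53.6 in WT replicate 1 and 0.624 and 1.34 in WT replicates 2 and 3.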

How the data were processed

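ChIP-seq for Ikaros was done in 6 samples. The 3 WT peak lists were used, 1 per library; KO libraries were not analysed here. Replicate numbers are those of the sample titles, and the description of WT replicate 3 is Ikzf1-WT-4. Per the labels' protocols, 2% formaldehyde was the fixative, 2 µg of antibody went into each precipitation, and sonication aimed at fragment lengths of 100 to 200 bp. Per the submitters' processing notes, Subread, Picard, SAMtools, MACS2, edgeR 3.20.0 and mm10 were used, with no roles given; the control library, threshold and annotation are not given in the sources used here. A fold enrichment, which is a ratio on a linear scale, stands beside every peak, per the file headers. So do a −log10 p-value and a −log10 q-value, per the file headers. The deposited score is that −log10 q scaled up and cut to a whole number, and was not used. The lists hold no read counts, so depth is unknown, and intervals cover counting error over genes only.

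Members and lists were chosen with earlier results of these data known. Rows were reduced to 1 per peak for ranks. Sites sharing at least 1 base were merged. Distance to a gene is the authors'. Starts came from the RefSeq promoter table; the distance to them, from the peak midpoint, was added after the files were seen. Names were matched to RefSeq by Ensembl ID and then symbol, for 34 of 34 members. Shares were compared over lists with a two-sided exact sign-flip permutation test. Named with values were all members in 2 or more lists, the 5 strongest in 1 list, and the other pathway genes in all lists, apart from an item not reported here; further members in 1 list were named after their values were seen. Alternatives changed the threshold, overlap, list length, gene assignment and replicates. Software was matplotlib 3.10.9, pandas 2.3.3, SciPy 1.17.1, NumPy 2.4.6 and Python 3.11.15, and merging and motif search were tested on simulated data.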

Additional observations from a re-analysis of the deposited data

How the results depend on the processing

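No paired analysis was possible because all lists come from WT libraries and no groups of samples were compared. Genes in all lists, in 2 or more and in any numbered 9, 16 and 34; with peaks at a −log10 q of 5 or more they numbered 5, 7 and 14, at 10 or more 1, 4 and 5, and with the strongest 685 peaks of each list 5, 9 and 18. The gene left at 10 or more was Ddx20, and at 5 or more and with equal lengths the 5 were Ddx20, Hnrnpf, Hnrnpul2, Rbmxl1 and Srsf9. Stricter thresholds and shorter lists leave fewer genes by construction. Without 1 replicate, genes in both remaining lists ranged from 10 to 14, the highest without replicate 1, and genes in any from 21 to 33, the lowest without replicate 2. Other overlap rules and RefSeq assignment kept the counts within 1.5 times. Leaving Rbms genes, Ddx58 and Dhx58 out of the name rule could change no count, as none of them was a member. RefSeq assignment gave 37 genes in any list, adding Hnrnpd, Hnrnpdl and Prpf4b, which were not members. The family shares above do not count them. The mean differences in location and in median percentile stayed positive in every alternative run. For median percentile the lists themselves differed in sign, at 5.11, -3.62 and 11.4 in WT replicates 1, 2 and 3. Counted per pair of a peak and a gene, added after the data were seen, the mean difference in the share near a start was 22.3 percentage points. Without 1 replicate, the mean difference in median percentile ranged from 0.743 to 8.24. The share of promoters of genes in all lists with the core, 42.9%, was 14.3% for TGGGAA, and for GGGAA it was 57.1% in genes of 2 or more lists and 56.7% in all 30 windows (exact binomial 95% interval of the 42.9%, over 7 windows, 9.90 to 81.6). TGGGAA contains GGGAA and the larger sets contain the 7 windows, so these shares are not independent. Since depth is unknown, a gene that a list does not name may have a site too weak to be called.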
